A study of Mus musculus with 6 samples.

Results

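The 3 control libraries describe the RNA of the apical end of the mouse lower first molar, the end at which the tooth root forms, at postnatal day 7.5. They were chosen by their genotype label alone and are 3 of the 6 samples of the study. All 3 came from the C57BL/6 strain and carried Arid1a fl/fl, that is, Arid1a alleles flanked by loxP sites, with no Cre recombinase to cut them. These mice were injected with tamoxifen in corn oil (1.5 mg for each 10 g of weight) on postnatal day 3.5, as were the Gli1-CreER;Arid1a fl/fl mice of the other 3 samples, which are not compared here. The libraries are therefore a baseline for tamoxifen-treated mice with unrecombined loxP alleles, not for untreated wild-type mice. They are named control 2, control 3 and control 5 after the numbers in the sample titles. The labels do not say whether a library holds 1 animal or pooled animals, so the spread between libraries may be partly technical. No value below is a test between libraries, and every ± is the SD over these libraries (n = 3).

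At this age the crown of the first molar is still laying down its hard tissues while the root begins to grow from its lower rim. Ameloblasts, the epithelial cells of the enamel organ, secrete amelogenin, ameloblastin and enamelin, and later, in the maturation stage, break that matrix down with proteases and move mineral ions through transporters. Odontoblasts, derived from the dental papilla, secrete type I collagen and dentin sialophosphoprotein. The dental follicle around the tooth gives rise to cementum, periodontal ligament and alveolar bone, and Gli1 is a transcriptional readout of Hedgehog signalling in the tissue that forms the root.

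Each library held 21067012, 22533024 and 21079918 estimated gene counts for control 2, 3 and 5. Levels are CPM, counts scaled to a library of 1000000, on these totals after TMM scaling within the controls, with factors of 1.05, 1.01 and 0.940, and shares are percentages of the unscaled total. A single count was worth 0.0438 to 0.0505 CPM, and 3 counts, taken as the floor of detection, 0.131 to 0.151 CPM. Of 22287 genes listed, 14633 reached 1 CPM in all 3 libraries, 9280 reached 10 CPM, 1326 reached 100 CPM and 41 reached 1000 CPM. Among protein-coding genes, 12891 of 15893 reached 1 CPM in every library. Only 8 listed genes were at 0 in all 3, and 253 had 3 counts or fewer over the 3 together. Every listed gene has at least 10 counts summed over the 6 libraries, and genes that are not listed are given no value here.

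The 6 genes that mark the labelled tissue were all detected in all 3 libraries. Amelx, which encodes amelogenin, stood at 101708, 112051 and 193933 CPM in control 2, 3 and 5. Dspp, which encodes dentin sialophosphoprotein, stood at 8906, 8178 and 7965 CPM. Col1a1, the α1 chain of type I collagen, was at 35511, 37324 and 35951 CPM. Amelx was highest in control 5, 1.91 times its lowest library, whereas the libraries of Dspp and Col1a1 lay within 1.12-fold and 1.05-fold. Postn, which encodes the ligament matrix protein periostin, was at 203, 232 and 187 CPM, and Krt14, a keratin of basal epithelium, at 585, 756 and 690 CPM. Gli1 was at 84.7, 71.7 and 90.9 CPM, with a rank of 1925 among all genes. Arid1a, the gene carrying the loxP sites, was at 195, 189 and 189 CPM (191 ± 3.45).

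**Figure D1:**
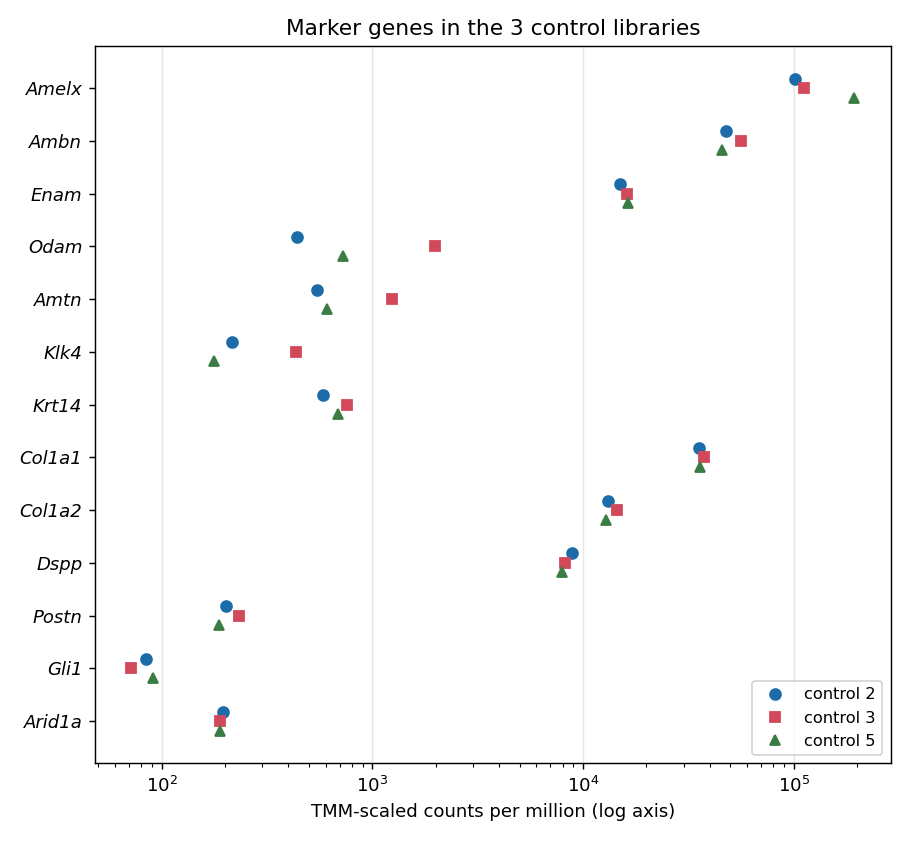
Levels of 13 marker genes in each control library, on a log axis of TMM-scaled CPM; each symbol is 1 library. Amelx is highest in control 5 at 193933 CPM, Odam, Amtn and Klk4 are highest in control 3, and Arid1a lies between 189 and 195 CPM in all 3.

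Enamel matrix genes held the largest share of the RNA. Amelx held 10.7%, 11.4% and 18.2% of all counts, Ambn (ameloblastin) 5.02%, 5.69% and 4.27%, and Enam (enamelin) 1.57%, 1.64% and 1.53%. The 3 genes together took 17.3%, 18.7% and 24.0% of the libraries (20.0% ± 3.56). Per kilobase of annotated exon, which allows genes to be compared, Amelx reached 136033 ± 50576 CPM per kilobase, Ambn 25942 ± 2904 and Enam 2882 ± 134. The libraries of Amelx did not overlap those of Ambn on that scale, nor did those of Ambn overlap those of Enam. The larger share in control 5 lay in Amelx alone, because Ambn was lowest in that library and Enam differed little between the 3. The apical label names a region and not a cell type, and in bulk RNA fewer cells of a type and less RNA per cell cannot be told apart.

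The enamel genes lie at 2 places in the genome. Amelx lies on chromosome X (positions 169176114 to 169187200, minus strand, mm10, exons from GENCODE M21), inside the span of Arhgap6 (168795099 to 169304435), which is read from the other strand and was at 10.3, 13.1 and 14.3 CPM. With Amelx, chromosome X held 12.6%, 13.4% and 20.1% of counts. Without it, chromosome X held 2.18%, 2.28% and 2.24% of the remainder. Ambn and Enam lie beside each other on chromosome 5 in a segment of 621 kb from Odam to Enam (87885029 to 88506049) that also holds Csn3 and Amtn. These genes belong to the secretory calcium-binding phosphoproteins, a family that arose by tandem duplication. Of the 7 listed genes in the segment, the 5 family members were above 1 CPM in every library and the other 2, BC037156 and Gm43431, were below it. The segment held 6.79%, 7.80% and 6.00% of all counts and 58.2%, 62.2% and 57.9% of those of chromosome 5.

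A second group of the same family, from Dspp to Spp1 on chromosome 5 (104170712 to 104441050), held 0.951%, 0.851% and 0.768% of counts, nearly all of it Dspp. Its neighbours Dmp1, Ibsp and Spp1, which encode mineral-binding matrix proteins of dentin and bone, were at 30.2 ± 1.66, 98.2 ± 9.96 and 64.5 ± 20.4 CPM. Mepe, a gene of osteocytes and odontoblasts, was below 1 CPM in all 3. Csn3 encodes kappa-casein and is best known from milk. It was at 878, 1390 and 841 CPM, rank 47 of all genes, and was highest in the same library as its neighbours Odam and Amtn.

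Amelx, Ambn and Enam are among the most abundant transcripts, and Ambn, Enam, Amtn and Odam share a chromosomal segment. For these reasons the sequences before the start sites of these enamel genes are shown. They are the 80 bases before the RefSeq start (GRCm38.p6), written 5′ to 3′ on the strand of the gene. Capitals mark TGATTGG in each of them, TATAAA in the one from Amelx, and TTAAAT in the other four. These letters were chosen after the sequences had been read.
Amelx: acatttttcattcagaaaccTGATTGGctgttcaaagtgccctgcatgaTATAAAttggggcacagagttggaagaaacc
Ambn: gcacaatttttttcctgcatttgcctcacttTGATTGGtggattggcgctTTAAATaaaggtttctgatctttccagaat
Enam: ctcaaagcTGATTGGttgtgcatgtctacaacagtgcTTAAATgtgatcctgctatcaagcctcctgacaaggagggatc
Amtn: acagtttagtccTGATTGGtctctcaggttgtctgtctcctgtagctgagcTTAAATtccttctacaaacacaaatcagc
Odam: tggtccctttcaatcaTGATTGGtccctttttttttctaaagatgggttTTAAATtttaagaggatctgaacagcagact

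The windows are chrX:169187210-169187289 (minus strand) for Amelx and, on the plus strand, chr5:88455911-88455990 for Ambn, chr5:88487895-88487974 for Enam, chr5:88376028-88376107 for Amtn and chr5:87884930-87885009 for Odam. TGATTGG was present once in all 5, beginning 60, 49, 72, 68 and 64 bases before the start in the order printed. On the strand of the gene it occurs in the same 80 bases of 1.89% of 32851 RefSeq promoters, and on either strand in 3.71%. Among the listed protein-coding genes that have a promoter in the table and an exonic length, 3.38% of 12171 held it on their own strand. Of the 30 such genes highest per kilobase it was found in 6, which are these 5 genes and Fth1, the ferritin heavy chain. The letters were chosen from these 5, so their matches were known beforehand and the 6 of 30 do not measure an enrichment. TATAAA lay 31 bases before the start of Amelx and, outside the printed bases, 137 before that of Enam. On the strand of the gene it occurs between 40 and 16 bases before the start in 1.99% of all promoters in the table, and in 3 of those 30 genes, Amelx, Bglap and Vim. TTAAAT, which overlaps none of the other marked letters, began 30, 43, 29 and 31 bases before the start in Ambn, Enam, Amtn and Odam, and 0.624% of all promoters hold it on the strand of the gene between 40 and 16 bases before the start. The match in Enam lies outside that window and those in the other 3 genes inside it. A match is a description of letters and not a binding site.

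Counts were concentrated in few genes. The 10 most abundant genes held 29.3%, 29.0% and 34.4% of the libraries, the top 100 held 39.95%, 40.7% and 44.6% (41.7% ± 2.51), and the top 1000 held 60.8%, 61.4% and 64.4%. To reach 50% of the counts took 384, 355 and 229 genes. With Amelx, Ambn and Enam left out, the top 100 of the rest held 27.6%, 27.2% and 27.3%, so that control 5 no longer stood above the others. The 10 highest genes were the same in all 3 libraries, as were 28 of each top 30, 87 of each top 100 and 887 of each top 1000.

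**Figure D2:**
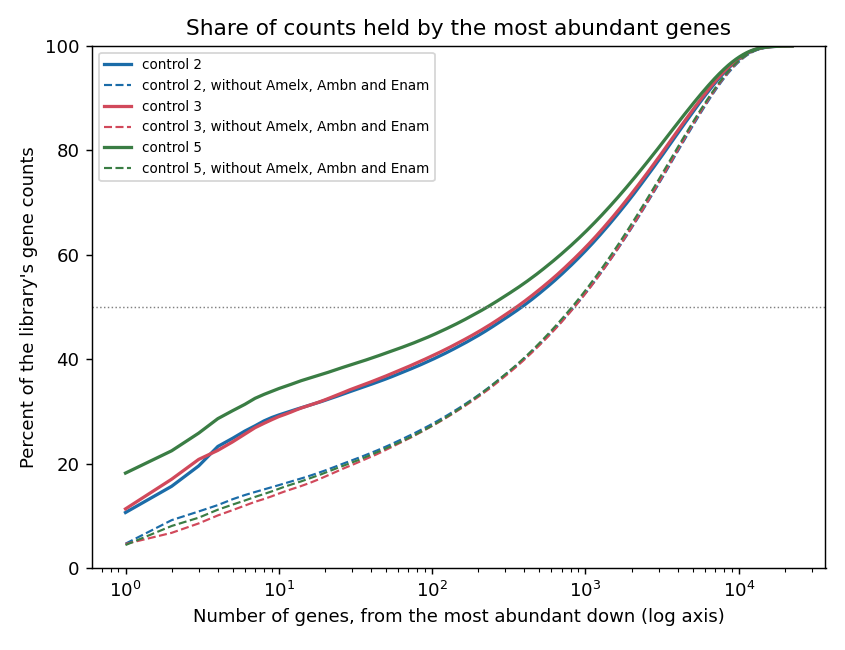
Percent of a library's gene counts held by its most abundant genes, against the number of genes on a log axis; solid lines are the control libraries, dashed lines the same libraries without Amelx, Ambn and Enam, and the dotted line marks 50%. Control 5 runs above the others because its first gene holds 18.2%, and without the 3 enamel genes the lines of the 3 libraries nearly coincide.

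Behind the enamel genes the abundance order was that of a collagen-secreting, mineralizing tissue. By CPM, Amelx and Ambn were followed by Col1a1, the ribosomal RNA gene CT010467.1, Enam, Col1a2, mt-Co1, Dspp, Sparc and mt-Cytb. Col1a2, the partner chain of Col1a1, was at 13458 ± 869 CPM and Sparc, which encodes the collagen-binding protein osteonectin, at 6474 ± 384. Ranks 11 to 30 held 8 mitochondrially encoded genes and 3 nuclear copies of such genes, together with Eef1a1 and Eef2, translation elongation factors, Igfbp5, a binding protein of insulin-like growth factors, Clu, a secreted chaperone, and Gja1, the gap junction protein connexin 43. They also held Col3a1, a fibrillar collagen, Tnc, the matrix protein tenascin C, Calb1, a calcium buffer of ameloblasts, and Nudt4. Tnc was at 1655 ± 93.0 CPM and Nudt4 at 1520 ± 46.6 CPM. Clu was at 2283, 2479 and 1706 CPM and Col3a1 at 2270, 1788 and 1481 CPM, both lowest in control 5. Per kilobase, the nuclear-encoded protein genes in the top 30 were Amelx, Ambn, Col1a1 (5525 ± 144 CPM per kilobase), Enam, Dspp (1884 ± 111), Sparc (1709 ± 101), Bglap (1663 ± 263), Eef1a1 (1634 ± 96.0), Hba-a2, Col1a2 (1083 ± 69.9) and Rplp1. Length is that of all annotated exons together, so a gene with long minor transcripts, such as Col1a2 with 12426 bases, ranks lower on that scale (rank 28) than by CPM (rank 6).

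By annotated class, protein-coding genes held 91.4%, 93.5% and 92.9% of counts (92.6% ± 1.05). The 2 listed rRNA genes held 3.90%, 1.73% and 2.77%, nearly all in CT010467.1 on chromosome 17, and this share was 2.25 times higher in control 2 than in control 3. The 15 mitochondrially encoded genes above 1 CPM and 1 below it together held 3.76%, 4.56% and 4.21%. Processed pseudogenes, which are reverse-transcribed gene copies, held 2.46% ± 0.138, and unprocessed pseudogenes 0.808% ± 0.0687, mostly the nuclear copies of mitochondrial genes Gm28661, Gm10925 and Gm28437. Collagen genes, 44 listed and 38 above 1 CPM in every library, held 5.85% ± 0.425 of all counts, and genes of ribosomal proteins 0.946% ± 0.0477. The latter share leaves out reads assigned to pseudogenes of these genes, so it may understate their RNA. Of the level of a gene and its named pseudogenes together, the pseudogenes held 97.7% for Rps6 but only 0.0244% for Rplp0. Globin genes held 0.159% ± 0.0324.

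Among non-coding classes, lincRNA genes held 0.396% ± 0.0580 of counts and antisense genes 0.136% ± 0.0101. Malat1, a nuclear-retained lincRNA, was at 978, 594 and 633 CPM and was higher in control 2 than in the others. The small RNA genes Rn7sk (38.4, 14.6 and 31.9 CPM) and Rn7s1 (25.1, 10.6 and 36.2 CPM) and the annotated miRNA gene Mir6236 (159, 76.7 and 162 CPM) were lowest in control 3, the library with the least ribosomal RNA. Tug1, annotated as an antisense gene, was steady at 204, 216 and 206 CPM. Whether the library kit kept strand is not given, so reads of antisense genes and of the genes opposite them may not be separated. Other leading members were 2900097C17Rik (398 ± 47.3 CPM) among lincRNA genes, Brip1os (85.1 ± 4.85) among antisense genes and Firre (74.4 ± 10.8) among processed transcripts.

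Some of the abundance order depended on how reads were shared between near-identical genes. The nuclear copy Gm28437 was at 1876, 2296 and 2067 CPM and the mitochondrial gene mt-Co3 at 1875, 2295 and 2066 CPM, less than 1 CPM apart in each library. Of 188 genes with a pseudogene named after them and a joint level of at least 5 CPM, 37 had more counts in the pseudogenes than in the gene. Rpl3, a ribosomal protein gene, was at 8.56, 6.79 and 72.5 CPM, and together with its pseudogenes at 531, 554 and 549 CPM. The split between copies thus differed in control 5, whereas the sums lay within 1.04-fold. Rps3a3 was at 3.54, 142 and 1.47 CPM and Rps3a1 at 184, 114 and 188 CPM, and their sum was 188, 256 and 189 CPM. Of the 188 genes, 5 had a highest library above 2 times the lowest, against 2 of their sums. Gapdh, often used as a reference gene, was only at 33.7, 35.8 and 33.4 CPM, and the pseudogenes that share its reads were not summed here.

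Genes of ameloblasts in the secretory stage were all detected, 13 of 13 above 10 CPM and 11 above 100 CPM in every library. Besides Amelx, Ambn and Enam they included Calb1 at 1412, 1905 and 1354 CPM and Mmp20, the protease that trims enamel matrix, at 631, 697 and 775 CPM. Acp4, an acid phosphatase required for enamel, was at 302, 331 and 319 CPM, and Col17a1, a hemidesmosome collagen, at 393, 434 and 500 CPM. The list's sum was 177794, 197541 and 267951 CPM, and the difference in control 5 lay mostly in Amelx, since the median member lay 0.06 log2 units below its mean there. Dspp and Sp6 are on this list and also on those of odontoblasts and of epithelium.

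Genes of the maturation stage were also present, and here control 3 stood apart. Odam, a protein of the maturing enamel surface, was at 437, 1987 and 728 CPM, Amtn (amelotin) at 548, 1240 and 608 CPM and Klk4, the protease that clears enamel matrix, at 215, 432 and 177 CPM. The calcium exchanger gene Slc24a4 was at 88.9, 162 and 67.4 CPM, the carbonic anhydrase Car6 at 63.6, 157 and 76.7 CPM and Wdr72, required for enamel maturation, at 8.50, 28.0 and 10.8 CPM. The 11 members summed to 1829, 4605 and 2179 CPM, a range of 2.52-fold, and 9 of the 11 were highest in control 3, against 31.9% of all 14633 genes. Their median lay 0.71 log2 units above the 3-library mean in control 3, where the median of all genes lay at 0.01. Slc4a4, a bicarbonate transporter, differed less, at 270, 363 and 333 CPM. Without control 3 the list's sums, 1829 and 2179 CPM, were closer to each other.

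Outside that list, genes chosen after their values were seen took the same library. Slc34a2, a phosphate transporter, was at 1.36, 17.5 and 4.14 CPM, Sfrp4, a secreted Wnt antagonist, at 8.28, 22.4 and 4.90 CPM, Nos1 at 4.89, 13.7 and 4.90 CPM, and Wnt10b at 8.10, 17.1 and 7.93 CPM. All of these were highest in control 3. Among genes of at least 5 CPM, Xist included, 17 were more than 2 times higher in control 3 than in the next library, compared with 32 for control 5 and 4 for control 2.

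Epithelial genes were detected throughout, 19 of 20 above 1 CPM in every library. Krt5, the partner keratin of Krt14 in basal cells, was at 901, 1089 and 1146 CPM, Perp, a desmosome gene, at 291, 386 and 454 CPM, and Dsp (desmoplakin) at 281, 361 and 415 CPM. Trp63, the master regulator of stratified epithelium, was at 175, 240 and 240 CPM. The list summed to 3980, 4852 and 4792 CPM and was lowest in control 2, where 2 of 19 members were highest. The member below 1 CPM was Cldn4, a tight junction gene, at 0, 0.0438 and 0.808 CPM. Shh, the ligand made by dental epithelium, was at 30.03, 26.7 and 16.8 CPM.

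Several genes of the cornified and differentiated oral mucosa were far higher in control 5 than in the other libraries. Krt4 and Krt13, the paired keratins of the non-cornified oral lining, were at 1.31, 3.06 and 317 CPM and at 1.45, 2.76 and 277 CPM. Lor, which encodes the cornified envelope protein loricrin, was at 1.58, 1.36 and 39.8 CPM, and Calm4, a calmodulin-like protein of differentiating keratinocytes, at 0.271, 0.350 and 11.1 CPM. The list's 12 listed genes summed to 48.2, 64.5 and 714 CPM, and 5 of the 6 members above 1 CPM in all libraries were highest in control 5. Krt10 was an exception at 17.7, 19.4 and 9.98 CPM, and so was Krt76, a keratin of the palate, at 4.88, 2.76 and 0.477 CPM. Krt1 and Flg, which mark cornifying skin, were at or near 1 CPM or below it in all 3. Without control 5 the list stood at 48.2 and 64.5 CPM.

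The same library held the top of other keratinocyte genes that were not on the list. By the rule for the most variable genes, these were Sprr3 (0.362, 0.919 and 43.3 CPM) and Rptn, repetin (3.48, 3.41 and 68.9 CPM), both of the cornified envelope, Tgm3 (0.317, 0.438 and 17.2 CPM), a crosslinking transglutaminase, and Calml3 (1.18, 1.31 and 20.5 CPM). Serpinb12 was at 0.679, 0.875 and 17.2 CPM, and Serpinb3a, with 4 counts in control 2 and 1 in control 3, at 0.181, 0.0438 and 31.9 CPM. Idi2 (0.407, 0.219 and 29.0 CPM) and Ada, adenosine deaminase (3.03, 1.97 and 81.3 CPM), followed the same library. Of the 20 most variable named genes, 16 were highest in control 5, 2 in control 3 and 2 in control 2. The oral lining lies outside the tooth, and whether a piece of it was in the sample from control 5 was not tested.

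**Figure D3:**
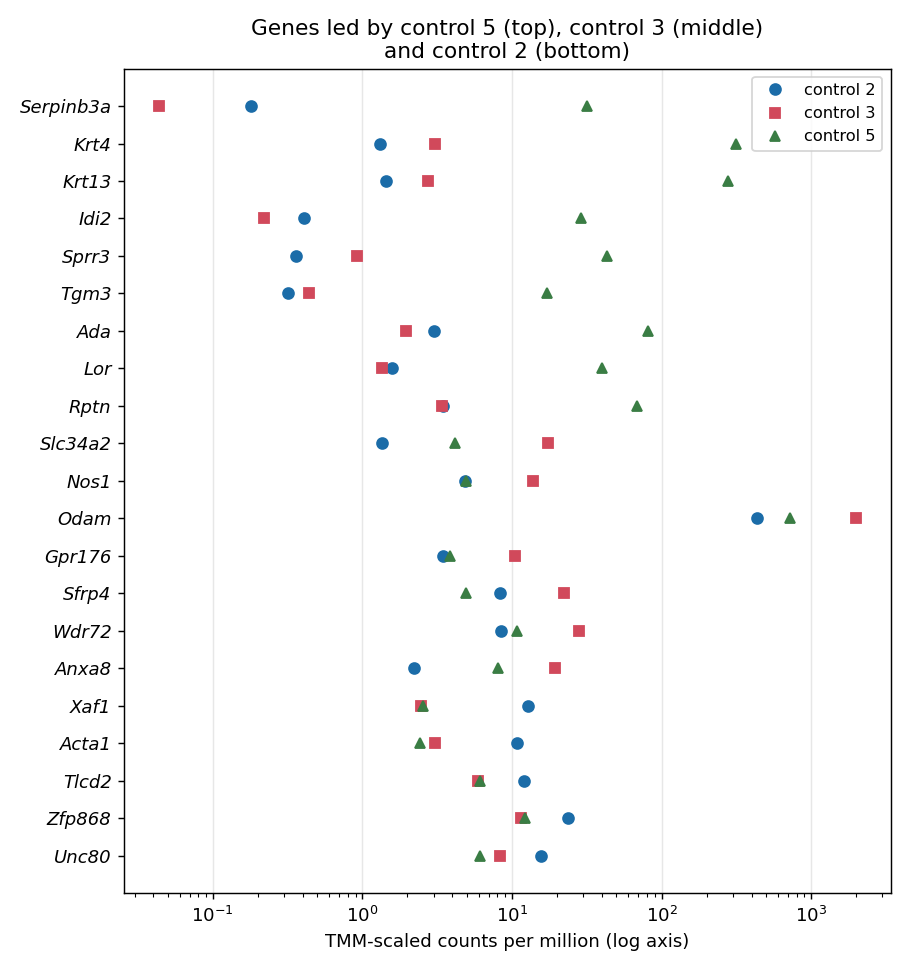
Levels of genes of 5 CPM or more on average that were led by a single control library, on a log axis of TMM-scaled CPM; each symbol is 1 library, with genes led by control 5 at the top, by control 3 in the middle and by control 2 at the bottom. Krt4 and Krt13 are at 317 and 277 CPM in control 5 and at or under 3.06 CPM in the others, whereas the genes led by control 2 differ by far less.

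Among immediate early genes, which are switched on within minutes by growth factors or handling, some were higher in control 5 and others were not. Egr1 was at 16.2, 18.9 and 211 CPM and Fos at 4.12, 6.39 and 21.2 CPM, each highest in control 5. Jun was at 42.2, 62.1 and 42.0 CPM and Egr3 at 24.7, 25.2 and 18.3 CPM, so these members did not follow. The list also holds heat shock genes. Of its 15 members above 1 CPM, 7 were highest in control 3, 7 in control 5 and 1 in control 2, so the members were divided. The list's sum was 518, 641 and 772 CPM, highest in control 5, where Egr1 alone was at 211 CPM. Genes of hypoxia and glycolysis were highest in control 5 in 11 of 14 cases, against 35.5% of all 14633 genes, with a median 0.12 log2 units above the mean. Examples are Eno1, an enolase of glycolysis, at 75.1, 80.4 and 130 CPM and the kinase Hk2 at 45.7, 53.1 and 61.3 CPM.

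Odontoblast genes were mostly high, and their sum was steady. All 18 were above 1 CPM and 11 above 100 CPM in every library, and their sum was 67617, 71314 and 66840 CPM, a range of 1.07-fold that Col1a1, Col1a2, Dspp and Sparc carry. Alpl, the phosphatase that releases phosphate for mineral, was at 792, 818 and 801 CPM, Nes, the intermediate filament nestin, at 596, 586 and 569 CPM, and Phex, a phosphate-regulating peptidase, at 501, 582 and 526 CPM. Their replicate values differ by no more than 1.16-fold. Bglap, which encodes osteocalcin, was at 983, 1208 and 892 CPM, and its neighbour copies Bglap2 and Bglap3 share sequence with it, so their split is uncertain. Several members differed more. Cldn1, a tight junction gene on the list, was at 183, 392 and 273 CPM and Bglap2 at 243, 305 and 191 CPM. Sp7 was at 144, 145 and 98.4 CPM and Smpd3 at 143, 110 and 150 CPM. Dmp1 was at 28.5, 30.3 and 31.9 CPM, Notum, a Wnt inhibitor, at 27.3, 23.6 and 25.3 CPM and Gsc, a homeobox gene, at 2.76, 2.67 and 3.08 CPM.

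Dental papilla and jaw mesenchyme genes were likewise steady in sum, at 3206, 3393 and 3295 CPM (1.06-fold). Vim (vimentin), a filament of mesenchymal cells, led at 1373 ± 91.2 CPM and made up a large part of that sum. Single members such as Dlx3, Runx2 and Pax9 differed more than the sum did. The homeobox genes Dlx3 (403, 431 and 335 CPM), Msx2 (224, 235 and 218 CPM), Dlx2 (112, 135 and 115 CPM), Msx1 (109, 107 and 95.3 CPM), Dlx5 (97.1, 93.1 and 96.2 CPM) and Barx1 (110, 101 and 109 CPM) were all present. Nfic, a transcription factor needed for root growth, was at 256, 253 and 262 CPM, and Runx2, the regulator of osteoblast fate, at 133, 171 and 139 CPM. Pax9 was at 24.7, 21.2 and 18.6 CPM, Lhx6 at 32.0, 28.9 and 32.0 CPM and Lhx8 at 12.9, 12.1 and 10.4 CPM. Members at the low end were Fgf10, Tac1 and Fgf3, at 1.05 to 5.45 CPM.

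Dental follicle and periodontal ligament genes summed to 4809, 4482 and 4194 CPM, highest in control 2 and lowest in control 5. Lum (lumican) at 1329, 1161 and 1056 CPM, Dcn (decorin) at 731, 675 and 623 CPM, and Col12a1, a collagen of fibrous tissue, at 632, 585 and 499 CPM were in that same order. Fmod (fibromodulin) was at 569, 518 and 616 CPM and Postn at 203, 232 and 187 CPM, in other orders. Of 19 members, all above 1 CPM, 9 were highest in control 2, 6 in control 3 and 4 in control 5. Pthlh, a secreted regulator of eruption, was at 10.1, 12.9 and 13.0 CPM and its receptor Pth1r at 26.4, 23.8 and 28.6 CPM. The tendon and ligament regulators Mkx and Tnmd were at 11.3 to 16.6 CPM and Scx at 1.11 to 1.53 CPM.

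Bone genes overlapped those of odontoblasts through Col1a1, Col1a2, Ibsp, Sp7 and the Bglap genes, and their sum, 52062, 55508 and 51880 CPM, is mostly type I collagen. Genes that separate bone better were low. Sost, a product of osteocytes, was at 0, 0.963 and 1.62 CPM, Ifitm5, a gene of osteoblasts, at 6.79, 6.39 and 8.06 CPM and Phospho1, a mineralization phosphatase, at 19.9, 16.8 and 15.1 CPM. Of the 12 cartilage genes, 6 were above 1 CPM in all 3, led by Col9a2 at 309, 241 and 287 CPM, while Col2a1, the main collagen of cartilage, was at 16.5, 14.6 and 24.9 CPM and Acan (aggrecan) at 4.07, 3.15 and 3.08 CPM. Col10a1, of hypertrophic cartilage, was below 1 CPM.

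**Figure D4:**
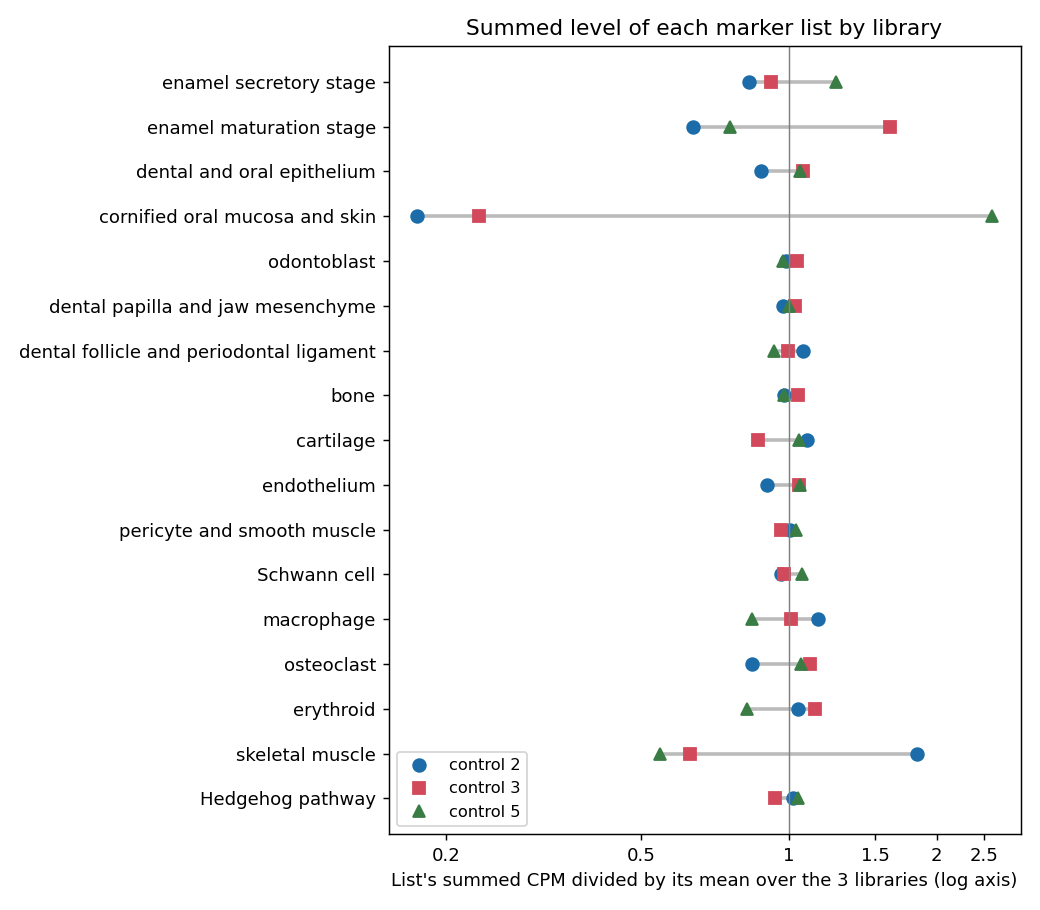
Summed CPM of 17 gene lists in each control library, divided by the list's mean over the 3 libraries, on a log axis; each symbol is 1 library and the grey bar spans them. The maturation list stands out in control 3, the oral mucosa list in control 5 and the skeletal muscle list in control 2, whereas the odontoblast, papilla and bone lists lie within 1.07-fold.

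Genes of blood vessels, immune cells and other non-dental cell types were detected at lower levels. Endothelial genes, 15 of 15 above 1 CPM, summed to 424, 493 and 495 CPM, with Cdh5 (VE-cadherin) at 71.8, 82.1 and 80.5 CPM and Pecam1 at 45.4, 55.0 and 57.8 CPM, lowest in control 2. Pericyte and smooth muscle genes summed to 768, 736 and 791 CPM, led by Rgs5 at 214, 240 and 249 CPM. Macrophage genes summed to 488, 430 and 358 CPM, and 10 of 12 members were highest in control 2, against 32.6% of all genes, among them Mrc1, the mannose receptor, at 126, 100 and 80.8 CPM and Csf1r, the receptor that sustains macrophages, at 92.0, 86.6 and 75.7 CPM. Osteoclast genes, led by Ctsk (cathepsin K) at 79.8, 97.0 and 94.0 CPM and Mmp9 at 29.0, 43.3 and 41.5 CPM, were lowest in control 2, and all 6 members above 1 CPM were highest in control 3, against 31.9% of all genes. Erythroid genes summed to 1681, 1821 and 1320 CPM, of which the globin genes Hba-a2 (751, 831 and 621 CPM) and Hbb-bs (697, 736 and 525 CPM) were the largest part, again with all 6 members above 1 CPM highest in control 3. The 2 α-globin genes share sequence, as do the 2 β-globin genes, so their split is uncertain.

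Neutrophil genes reached 11.05, 15.01 and 21.4 CPM in sum, and lymphocyte genes 6.38, 6.43 and 5.10 CPM, of which Cd4, which macrophages of some tissues also express, was 4.84, 4.42 and 3.18 CPM. The T cell genes Cd3e and Cd3g were at 0.202 CPM or below. Mast cell genes other than Kit were below 1 CPM, and Kit, which is also expressed by other cells, was at 135, 123 and 120 CPM. Schwann cell genes were led by Pmp22, which many cell types express, at 82.8, 86.1 and 96.5 CPM. The more specific Sox10 was at 2.80, 2.28 and 1.82 CPM. Of the neuronal genes, Tubb3 was at 45.5, 39.6 and 39.4 CPM and the others at 11.2 CPM or below. Adipocyte and salivary gland genes were at about 1 CPM in sum, and 6 of 8 and 6 of 9 of them were given no value here.

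Skeletal muscle genes were low and uneven. Acta1, the actin of skeletal muscle, was at 10.8, 3.07 and 2.43 CPM, Myh8, the perinatal myosin, at 8.79, 0.692 and 0.633 CPM and Mylpf, a myosin light chain, at 4.48, 1.05 and 1.46 CPM. These were highest in control 2, and the list summed to 46.2, 15.9 and 13.9 CPM, a range of 3.34-fold. Myh4, a fast myosin, had the reverse order at 0.456, 6.29 and 5.16 CPM. Xaf1, chosen after its values were seen, was at 12.9, 2.45 and 2.52 CPM, which is 5.11 times the next library.

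The 3 libraries did not all share the same sex-linked transcripts. Xist, the RNA that coats the inactive X chromosome, was at 0.574, 952 and 2.22 CPM. The Y-linked genes Ddx3y (48.7, 0 and 58.1 CPM), Uty (32.5, 0 and 23.1 CPM), Eif2s3y (16.5, 0 and 36.5 CPM) and Kdm5d (24.7, 0 and 20.1 CPM) had no count in control 3. Xist was thus high in control 3 and low, though above 3 counts, in controls 2 and 5, where the 4 named Y-linked genes were detected. The gene model Gm47283, also placed on the Y chromosome and chosen after its values were seen, had counts in all 3, at 11.7, 16.7 and 30.2 CPM. The labels give no sex. The list of maturation genes and the osteoclast and erythroid genes are also highest in control 3, and since it is the only library of its kind among the controls, sex and library cannot be told apart.

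Hedgehog pathway genes were present from ligand to target. Of 19 listed, 17 were above 1 CPM and 16 above 10 CPM in every library, and the sum was 1351, 1242 and 1383 CPM, a range of 1.11-fold. Among the ligands, Shh was at 30.03, 26.7 and 16.8 CPM, whereas Dhh and Ihh were at 0.651 CPM or below. Scube3, a secreted protein of the family that helps release the ligand, was at 308, 304 and 338 CPM, and Scube1 at 71.3, 46.2 and 69.8 CPM. The receptor Ptch1, also a target, was at 255, 226 and 258 CPM and the signal transducer Smo at 139, 139 and 147 CPM.

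The co-receptors Gas1, Cdon and Boc were at 86.9, 84.1 and 62.1 CPM, 34.2, 34.1 and 28.2 CPM and 17.2, 16.8 and 16.3 CPM. Of the transcription factors, Gli3 was at 79.96, 76.5 and 104 CPM, Gli2 at 43.2, 45.1 and 55.9 CPM, and Gli1 as given above, with the inhibitor Sufu at 41.2, 43.1 and 43.9 CPM. Hhip, a target that binds ligand, was at 45.1, 26.8 and 27.8 CPM. Per kilobase, Gli1 was at 16.5 and Ptch1 at 17.4 CPM per kilobase on average. Control 3 was lowest in the sum, and 10 of 17 members were highest in control 5, where 35.5% of all genes were. Which of control 2 and control 5 was highest depended on the scaling.

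Subunits of the chromatin remodelling complexes BAF, to which the Arid1a protein belongs, and PBAF were steady between libraries. All 27 listed were above 1 CPM in every library, and their sum was 1804, 1778 and 1848 CPM (1.04-fold). Arid1a led with 195, 189 and 189 CPM, followed by the scaffold Smarcc2 at 157, 142 and 155 CPM and the ATPase Smarca4 at 151, 139 and 135 CPM. Arid1b, the alternative to Arid1a in BAF, was at 92.9, 93.9 and 109 CPM and the ATPase Smarca2 at 106, 106 and 118 CPM. The PBAF members Pbrm1 and Arid2 were at 115, 123 and 112 CPM and at 101, 107 and 122 CPM. Dpf1, a neuronal subunit, was at 2.06 to 3.38 CPM, and Dpf3 and Ss18l1 were below 8.1 CPM.

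Other signalling families were represented by a few high members each. Of the Wnt ligands, Wnt5a was at 217, 239 and 228 CPM, Wnt4 at 106, 113 and 135 CPM, Wnt10a, a tooth and odontoblast ligand, at 59.7, 62.9 and 63.9 CPM and Wnt6 at 58.1, 59.1 and 65.5 CPM, while Wnt1, Wnt3 and Wnt16 were near the floor. Of the BMP and TGF-β ligands, Tgfb3 led at 228, 277 and 261 CPM, with Bmp7 at 204, 217 and 204 CPM, Bmp3 at 142, 128 and 99.3 CPM, Bmp2 at 109, 87.2 and 96.7 CPM and Bmp4 at 88.9, 97.1 and 83.1 CPM. FGF ligands were low, with Fgf13 at 38.1, 36.4 and 39.8 CPM and Fgf1 at 31.7, 36.9 and 33.0 CPM as the highest. Estrogen receptors are proteins that bind tamoxifen and its metabolites. Of their genes, Esr1 was at 1.31, 1.53 and 2.02 CPM and Esr2 at 0.0452, 0.0438 and 0 CPM, so that Esr2 was not detectable at this depth. Interferon response genes summed to 86.9, 77.0 and 73.1 CPM.

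Cell cycle genes were present at modest levels and were highest in control 2. The 25 genes of G2 and mitosis summed to 338, 282 and 263 CPM, and 22 of them were highest in control 2, where 32.6% of all genes were. Mki67, a proliferation marker, was at 64.3, 53.4 and 51.6 CPM and Top2a, the mitotic topoisomerase, at 50.1, 37.8 and 38.3 CPM. Of the 20 genes of G1/S and replication, 18 were highest in control 2, with a sum of 353, 281 and 299 CPM, led by Rrm1 at 40.7, 39.3 and 39.3 CPM and Pcna at 26.6, 26.3 and 28.3 CPM. The medians of the 2 lists lay 0.19 and 0.20 log2 units above the mean in control 2. Inhibitors of the cycle were steady at 1233, 1242 and 1217 CPM in sum. Among them were Cdkn1a at 225, 237 and 256 CPM, Cdkn1c at 190, 139 and 164 CPM, Cdkn1b at 79.2, 87.0 and 73.8 CPM and the zinc finger gene Plagl1, which the series title names, at 93.1, 85.3 and 99.4 CPM.

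Several lists had their highest or lowest level in the same library. Control 2 was lowest for epithelial and endothelial genes and highest for macrophage and cell cycle genes, as well as for ribosomal RNA. Between control 3 and control 5 they did not all move in the same way. Macrophage genes (430 and 358 CPM) and genes of G2 and mitosis (282 and 263 CPM) were lower in control 5. Genes of G1/S and replication (281 and 299 CPM) and ribosomal RNA (1.73% and 2.77%) were higher there. The part of these values in each other was not tested.

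Pairs of libraries were compared to see whether any was a copy of another. The chi-square per degree of freedom of the counts over genes was 24.5 (2 and 3), 44.8 (2 and 5) and 45.1 (3 and 5). Counting error alone would give about 1, and an identical copy less than that. The values are a description, as separate samples differ beyond counting error. Across genes, which are not independent replicates, Pearson's r of log2 levels was 0.991, 0.985 and 0.987 over 14633 genes. The number of these genes differing by more than 2-fold was 146, 300 and 215 for the same pairs. The common biological coefficient of variation of edgeR, the relative spread of a gene beyond counting, was 0.141, and it was 0.113 without control 5.

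Spread was smaller at higher levels, except among the most abundant genes. The median coefficient of variation was 19.4% for the 3477 genes with a mean of 1 to 5 CPM, 10.6% from 5 to 20 CPM, 7.03% from 20 to 100 CPM and 6.68% from 100 to 1000 CPM. For the 52 genes at or above 1000 CPM it was 10.5%, although counting error at the median count of that class is 0.498%. That class includes Amelx at 37.2% and CT010467.1. Of 11833 genes of mean 5 CPM or more, 208 (1.76%) had a highest library above 2 times the lowest, and 63, 63 and 82 of them were highest in control 2, 3 and 5. That count was 117, 125 and 75 without control 2, control 3 and control 5. Of protein-coding genes 1.56% passed it, of pseudogenes 2.80%, and of the 202 genes of other types 9.41% (19 genes).

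**Figure D5:**
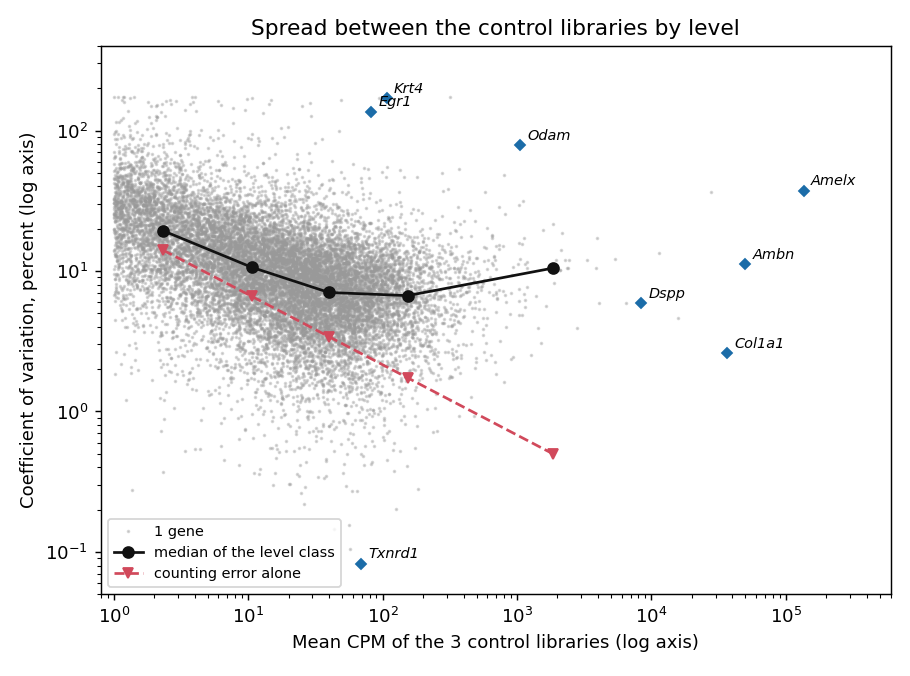
Coefficient of variation over the 3 control libraries against mean CPM, both on log axes. Grey points are genes of mean 1 CPM or more and black circles the median of each level class. Red triangles are the counting error at the median count of the class, and blue diamonds are named genes. The black line falls from 19.4% to 6.68% and ends at 10.5%, with Krt4, Egr1, Odam and Amelx far above it and Txnrd1 at 0.0823%.

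At the other end, some genes were nearly constant. The 10 genes of the smallest spread among the 3510 of mean 50 CPM or more had coefficients of variation of 0.0823% to 0.378%. Counting error at the median count of the class is 3.41% from 20 to 100 CPM and 1.74% from 100 to 1000 CPM. They include Txnrd1, a thioredoxin reductase, at 69.6, 69.6 and 69.5 CPM, Sec24b, a vesicle coat gene, at 56.9, 56.8 and 57.0 CPM, Capn2 at 126, 126 and 126 CPM and Marcksl1 at 183, 184 and 183 CPM. They were picked as the smallest of many and describe these 3 libraries only. Of the usual reference genes, Ppia was at 174, 176 and 176 CPM, Actb at 1145, 1135 and 1299 CPM and Hprt at 35.3, 40.4 and 37.9 CPM, and B2m differed more, at 139, 115 and 97.5 CPM.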

How the data were processed

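RNA from an RNeasy Micro Kit had integrity numbers above 9 and was read single-end over 75 cycles on a NextSeq500, per the labels' protocols. STAR 2.6.1d, Partek and mm10 are named in the submitters' processing notes; the sources used here do not give their roles, the annotation, the library kit or its strandedness. The authors deposited expected counts, which are estimated and need not be whole (54.7% of control values were whole within 0.001), and a normalized signal table, used for 1 alternative only. All 22287 genes matched GENCODE M21 by name, chromosome and start, and 22251 were given an exonic length.

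CPM used TMM factors over the 3 controls, computed with edgeR 4.0.16 in R 4.3.3. Dispersion came from a fit with an intercept only on rounded counts, and that step was tested on simulated data. No test between groups or libraries was made.

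Members and lists were chosen with earlier results of these data known. Named genes are the tissue markers, Arid1a, the 30 highest by CPM, the 15 highest per kilobase, the 3 highest in each gene type, up to 5 leading members of each list, the 20 most variable genes from 5 CPM and the 10 steadiest from 50 CPM. Of the most variable, 9 gene models or sex-linked genes were passed over. Further list members and other names were chosen after their values were seen. Alternatives were other scalings, thresholds, filters, the authors' table and each library left out. Some genes are not reported here.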

Additional observations from a re-analysis of the deposited data

How the results depend on the processing

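The number of genes with a highest library above 2 times the lowest depended on the processing: 208 as reported, 829 when genes from 1 CPM were included, which admits genes with few counts, and 75 to 125 when 1 library was left out, which leaves 2 to compare. The genes at or above 1 CPM (14584 to 16099), the top 100 share (40.02% to 42.6%), the protein-coding share (92.2% to 93.2%) and the biological coefficient of variation (0.113 to 0.167) moved less under every alternative tried. With library totals alone, 10 of 35 lists had another highest library, among them Hedgehog, BAF, endothelium and pericyte genes, all with ranges of at most 1.26-fold. RLE factors and TMM factors over all 6 libraries each changed 2. TMM over all 6 libraries raised the control levels by 0.10 to 0.11 log2 units. Leaving out 1 library changed the ratio of highest to lowest library from 2.52 to 1.199 for the maturation list (control 3), from 14.8 to 1.34 for the oral mucosa list (control 5), from 3.34 to 1.15 for the muscle list (control 2) and from 1.91 to 1.10 for Amelx (control 5). In each of these cases the highest library was the one left out, so the ratio had to fall. Without control 2 or control 5 the maturation ratio was 2.11 and 2.52. Of list and named-gene ratios, 5 of 105 and 11 of 51 moved by more than 1.5 times with 1 library left out, and none under another scaling. The summed level of a list moved by at least its SD over the libraries in 15 of 105 cases under another scaling and in 11 of 105 with a library left out. The maturation, oral mucosa and muscle lists kept their highest library under every scaling. No paired analysis was possible because a single group was described and no test was run. The number of libraries and the splitting of reads among near-identical copies limit every level given.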

Other observations

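Hox genes, the regulators of position along the body axis, were low. They were chosen after their values were seen. Of the 6 listed, Hoxd8 was at 1.58, 2.23 and 2.22 CPM and was the only one at or above 1 CPM in every library, and Hoxc13, known from hair and nail, was at 0.543, 1.75 and 1.87 CPM. Hoxb2, Hoxd9, Hoxd4 and Hoxb4 were lower, and all 6 together summed to 4.24 to 5.91 CPM. Homeobox genes of the jaw, such as Dlx3 and Msx2, were at 335 to 431 CPM and 218 to 235 CPM in the same libraries.

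The matrix metalloproteases, of which 13 of 15 listed were above 1 CPM, differed little in sum between libraries, at 1704 ± 31.0 CPM. Keratin genes, 37 listed and 15 above 1 CPM, summed to 1824, 2251 and 2913 CPM. The sum was highest in control 5, where Krt4 and Krt13 were at 317 and 277 CPM, against 3.06 CPM or less in the others. Members were divided: Krt5 and Krt17 were also highest in control 5, but Krt14 and Krt10 were highest in control 3. Of 42 listed genes of histone cluster 1, 2 reached 1 CPM in every library.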
